A study of Homo sapiens with 3 samples.

Results

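The BCL2 family was followed on 3 two-colour arrays through 10 genes, of which 5 encode pro-survival guardians (BCL2, BCL2L1, BCL2L2, MCL1 and BCL2A1) and 5 encode pro-death proteins, the effectors BAX and BAK1 and the BH3-only proteins BID, BAD and BCL2L11. Members were all features whose platform annotation gave exactly 1 symbol, that symbol being among the 10, with a log2 ratio on at least 2 of the 3 arrays. Of 45220 features, 50 carried such a symbol and 41 passed the rule, 22 of guardians and 19 of effectors and BH3-only members. The rule used whether a ratio was present and not its size. On every array, channel 1 (Cy5) was MCF10A RNA after stable transfection with obscurin shRNA-2. MCF10A is a human breast epithelial line that is immortal but forms no tumours. Channel 2 (Cy3) was RNA of the same line stably transfected with the scrambled control shRNA-1. Both cultures were kept in 1.5 ug/mL puromycin and received 150 uM etoposide, a topoisomerase II poison, for 48 hours before RNA was taken. The labels call the 3 arrays independent replicates without naming separate cultures, so the spread between them may be partly technical. Every array carried the dyes in the same orientation, so dye and shRNA cannot be told apart.

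BCL2 family proteins decide whether the outer membrane of the mitochondrion is opened during apoptosis. The effectors BAX and BAK1 form pores that release cytochrome c, the guardians bind and restrain them, and BH3-only proteins either occupy the guardians or activate the effectors directly. DNA damage by etoposide is a classical trigger of this pathway, and in epithelial cells MCL1 and BCL-xL, the long product of BCL2L1, are known as major guardians.

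The question for this family was whether guardians stood at a different ratio from effectors and BH3-only members after loss of obscurin, a giant cytoskeletal protein, in cells under etoposide. Arrays 1, 2 and 3 had values for 36065, 35502 and 35674 features. Their medians over all features as deposited were 1.49, 1.28 and 1.39 on the log2 scale, and every value below is given relative to its array's median unless stated otherwise. A positive value is likely higher in obscurin shRNA cells than in control shRNA cells, because obscurin shRNA is channel 1. Whether channel 1 was the numerator is not stated by any source used here. A ratio holds no level, so neither the abundance of a gene nor the cell type can be read from it. The obscurin gene was not among the named features, so the knockdown itself was not analysed here. Among marker genes, 13 of 19 epithelial, 12 of 24 stromal and 7 of 14 leukocyte features had a mean above the array medians. Of all 39399 features on at least 2 arrays, 16365 did. The epithelial list was split by gene: every CDH1 feature had a mean above, and every KRT18 and KRT14 feature a mean below. In each list, 0 were called above or below.

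Values of all features formed a narrow upper peak and a broad lower one. The most repeated value lay 0.575, 0.691 and 0.608 above the median of arrays 1, 2 and 3, and 39.5%, 36% and 38.7% of the values of features on at least 2 arrays lay within 0.5 of it. The lower quartile lay at -2.07, -2.11 and -2.10. A member therefore tended to sit either near 0.6 or well below 0.

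Whether a value stood in the row of its own feature bears on every gene name. In the list of features, 233 transcripts with at least 10 features each, none of them of this family, should give like values at each of their places. Each of the 5 consecutive stretches of 9044 features was read at its own place and 170 features, 1 row of the array, earlier. In the first stretch, the repeated features correlated with the other features of their transcript at 0.158 at the own place and at 0.457 a row earlier on array 1. On arrays 2 and 3 the order was the other way in that stretch, at 0.569 and 0.540 at the own place and at 0.0861 and 0.0308 a row earlier. Because the comparison values were those of arrays 2 and 3 in the first stretch, the own place was favoured there by construction. Each repeated feature was therefore also set against the other features of its transcript within the same stretch, array and place. In the first stretch this gave 0.54 at the own place on array 2 and 0.49 on array 3, against -0.19 and -0.03 a row earlier, and on array 1 it gave -0.22 at the own place and 0.36 a row earlier. This second measure was added after the data were seen, and it favoured the same place in each stretch except the fourth of array 1, where it gave 0.14 at the own place and 0.29 a row earlier. In the last stretch, the own place gave 0.390 on array 1, 0.0942 on array 2 and 0.164 on array 3, and a row earlier gave 0.159, 0.318 and 0.451. Over the 15 stretches, a row earlier correlated better in 9 and the own place in 6. Gene names below are those of the own place, which agreed less well than a row earlier over much of the list.

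Of the 41 features, 27 (65.9%) had a mean below 0 and 14 above, with a median of -0.77. Of all 39399 features on at least 2 arrays, 58.5% had a mean below 0, and their median was -0.38, so the family's share was near that of all features. With values as deposited, not centred, the family's median was 0.61. Without array 1 the family's median was -1.72. No member was called: by limma with Benjamini-Hochberg adjustment over all features, 0 of 41 were past an adjusted p of 0.05 in either direction, as were 0% of all features above and 0% below. At an unadjusted limma p under 0.05, 10 members lay below and 0 above, against 18.3% of all features below and 1.4% above. The smallest adjusted p of any feature was 0.059, close to the threshold, and calls appeared with other choices. With the most repeated value of every array as zero, 2 of all features were called above (0.00508%) and 3078 below (7.81%). With features measured on all 3 arrays only, 11 were called above and 2602 below (11.2%). Each of these settings called 3 members, all below: the BAX features at places 3750 and 6948 and the BCL2 feature at place 27291.

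**Figure D1:**
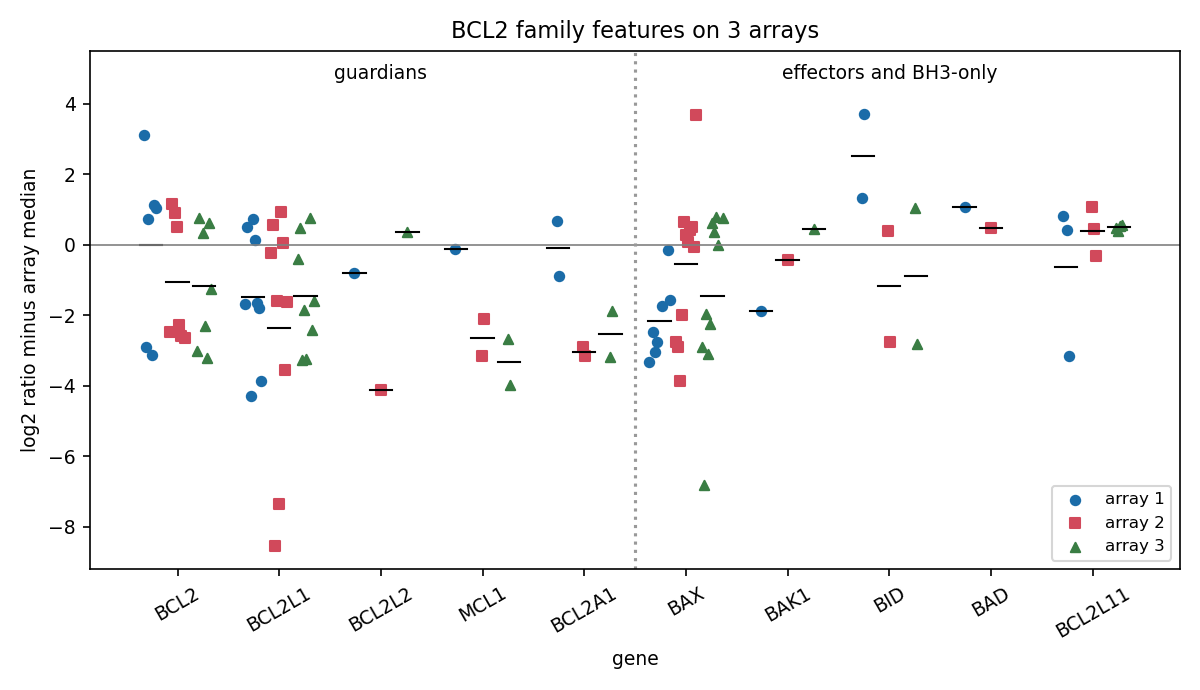
Log2 ratio of each BCL2 family feature minus its array's median (vertical axis), by gene; circles, squares and triangles are features on arrays 1, 2 and 3, and black bars are means over the features of a gene on an array. MCL1 and BCL2A1 lie below 0 on arrays 2 and 3, BCL2L11 lies close to 0.5 in most values, and BAX and BCL2 spread over both sides of 0.

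MCL1, the short-lived guardian that restrains BAK1, had a mean over features of -2.52, the lowest of the 5 guardians. It was -2.98 without array 1, -1.40 without array 2, where BCL2L1 was lower at -1.46, and -1.64 without array 3, where BCL2L2 was lower at -2.47. Its feature at place 2218 of the feature list had -0.12 on array 1, -3.16 on array 2 and -2.69 on array 3. The feature at place 5311 had -2.11 on array 2 and -3.98 on array 3 and no value on array 1. A further feature, at place 2235, was left out by the rule with 1 value, -2.37 on array 2. All 5 values of arrays 2 and 3 were below 0, and array 1 was near 0. The fitted mean was -1.99 ± 0.77 (SE, 3 arrays) at the first place, with a limma adjusted p of 0.302, and -3.04 ± 0.71 (SE, 2 arrays) at the second, with a limma adjusted p of 0.210. Read a row earlier on array 1, as the check favoured there, the 3 features had values below 0 in 2 cases and above 0 in 1.

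BCL2A1, a guardian induced by NF-kB and best known in blood cells, had a similar split by array. Its feature at place 34036 had 0.69 on array 1, -2.90 on array 2 and -3.17 on array 3, and the one at place 40153 had -0.89, -3.17 and -1.87. Both features were low on arrays 2 and 3 and higher on array 1. The fitted means were -1.80 (95% interval -4.70 to 1.11) and -1.97 (-3.66 to -0.29), with limma adjusted p-values of 0.396 and 0.200. These places lie in stretches where a row earlier agreed better on arrays 2 and 3. With each stretch read at its better place, the 6 BCL2A1 values had a median of 0.30 and 4 were above 0.

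BCL2L1, which encodes the guardian BCL-xL and the shorter pro-death BCL-xS, was annotated to 11 features, 9 of them with values on at least 2 arrays. Over 25 values the lowest was -8.54, the median -1.64 and the highest 0.94, and 17 were below 0. The feature of the transcript NM_001191 was the steadiest of the gene, with 0.50, 0.55 and 0.46 on arrays 1, 2 and 3. Like every BCL2L1 feature it was counted with the guardians by its symbol, whichever product its transcript encodes. Counting also features that the rule left out, those of NM_138578, the other transcript, were below 0 in 5 of 8 values on array 1. On array 2 this was 6 of 8 and on array 3 it was 6 of 7. Features annotated to this 1 transcript thus ranged on array 2 between -8.54 at place 11273 and 0.94 at place 13525. The lowest unadjusted p belonged to place 25363, with -1.78, -3.54 and -2.43 and a fitted mean of -2.58 ± 0.47 (SE, 3 arrays, limma adjusted p = 0.101). With each stretch at its better place, 17 of 27 values were below 0 and their median was -1.18.

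BCL2, the founding guardian, had 11 features, of which 8 were kept. Their 20 values were divided evenly, 10 above and 10 below, between -3.22 and 3.11. The feature of M13995, at place 5693, had 3.11 on array 1 against -2.49 on array 2 and -3.02 on array 3, and a feature of NM_000633 at place 7964 had the opposite order, -2.90, 1.16 and 0.75. Array 1 went against arrays 2 and 3 in both. Of the 2 BCL2 features below 0 on every array that measured them, the one at place 40662 had -2.66 on array 2 and -1.25 on array 3, and the one at place 27291 had -3.13, -2.28 and -2.32, with a fitted mean of -2.58 ± 0.34 (SE, limma adjusted p = 0.0641). The feature at place 27291 was called with the zero at the most repeated value (limma adjusted p = 0.0312) and among features on all 3 arrays (limma adjusted p = 0.0365). It lies in the fourth stretch, where a row earlier agreed better on arrays 2 and 3, and there it had 0.64 and 0.49. On array 1, where the measures of place disagreed, a row earlier gave 0.58. Another 3 BCL2 features lay above 0 wherever they were measured, the one at place 14876 with 0.73 on array 1 and 0.89 on array 2. With each stretch at its better place, 15 of 21 BCL2 values were above 0, with a median of 0.49.

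BCL2L2, the guardian BCL-w, had 1 feature, with -0.81, -4.13 and 0.35 on arrays 1, 2 and 3. The arrays disagreed in sign, and its mean of -1.53 (95% interval -4.65 to 1.59) was smaller than the spread between arrays (SD 2.32). Without array 2 the mean was -0.23, against -1.89 without array 1 and -2.47 without array 3.

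BAX, the effector that moves to mitochondria when activated and a p53 target, was the most repeated member, with 12 features, 11 of which were kept. Its 28 values had a median of -1.66 between -6.80 and 3.67, and 18 were below 0. On array 1 all 6 measured features of the transcript NM_138764 were below 0, and on arrays 2 and 3 its values divided by place. In the first stretch, all 5 features of this transcript were below 0 wherever measured, including the one at place 4723 that the rule left out. These were 3 of 3 values on array 1 (median -3.04), 5 of 5 on array 2 (median -2.75) and 4 of 4 on array 3 (median -2.99). The feature at place 3750 had -3.33, -2.75 and -2.89, the one at place 4508 had -2.49, -3.86 and -1.96, and the one at place 6948 had -3.04, -2.01 and -3.09. No value of these 3 features lay above -1.96. Their fitted means were -2.99 ± 0.30, -2.77 ± 0.51 and -2.71 ± 0.38 (SE, 3 arrays), with limma adjusted p-values of 0.059, 0.101 and 0.0685.

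Further along the list the same BAX transcript read differently on arrays 2 and 3. In the third stretch its 3 features had 0.27, 0.08 and 0.40 on array 2, at places 19584, 22020 and 23154, and 0.61, 0.36 and 0.78 on array 3. These own-place values lay between 0.08 and 0.78 and did not overlap those of the first stretch on the same arrays, although the features are annotated to 1 transcript. In the third stretch, however, a row earlier agreed better on arrays 2 and 3. There array 2 had -1.33 at place 19584, -1.06 at place 23154 and no value at place 22020. Array 3 had 0.37, -0.29 and 0.19 at places 19584, 22020 and 23154. The single feature of the other BAX transcript, NM_138763, lies in that stretch too and had -2.77, 0.64 and -2.25. At place 42456, in the last stretch, the feature had -1.57, 3.67 and 0.77 at its own place and 0.61, -2.69 and -2.91 a row earlier on arrays 1, 2 and 3. At place 39268, in the same stretch, a row earlier gave -0.56, -0.18 and 17.2. The 17.2 is the highest value of array 3 and counts among the better-place values. With each stretch at its better place, 25 of 32 BAX values were below 0, with a median of -1.61. In the first stretch on array 1, where a row earlier agreed better, all 5 BAX values were below 0 there too.

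**Figure D2:**
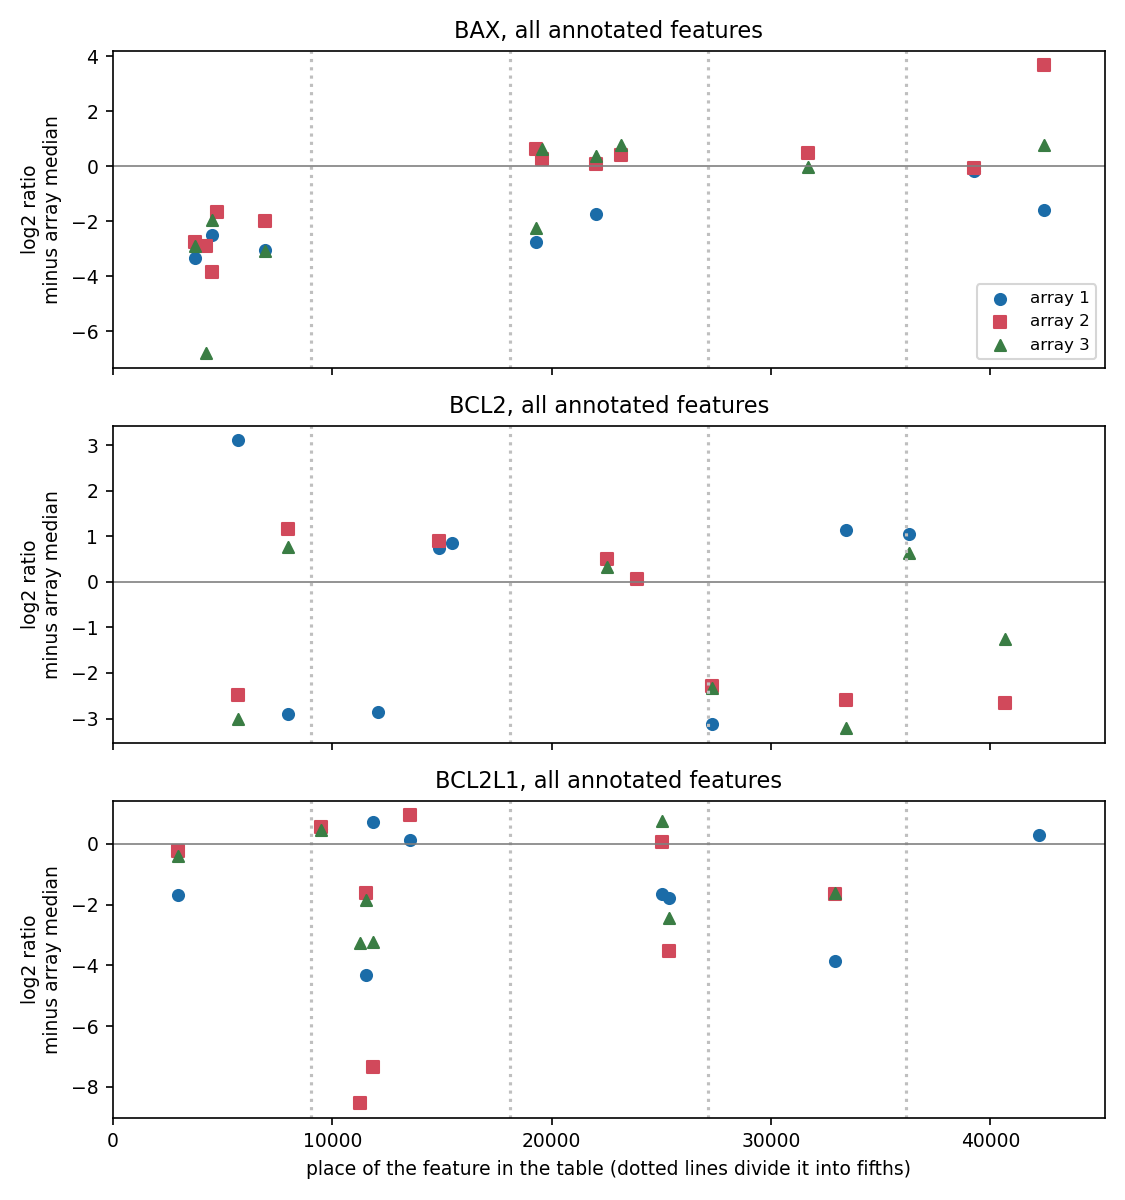
Log2 ratio minus array median (vertical axes) of every feature annotated to BAX, BCL2 and BCL2L1, against its place in the feature list (horizontal axis, 1 to 45220); circles, squares and triangles are arrays 1, 2 and 3 and dotted lines divide the list into 5 stretches. All values are those of the own place. BAX lies below 0 on all arrays in the first stretch. In the third stretch, where a row earlier agreed better, the 3 features of the same transcript lie between 0.08 and 0.78 on arrays 2 and 3.

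BAK1, the effector that resides on mitochondria, had 1 feature in the first stretch, with -1.89, -0.43 and 0.45 on arrays 1, 2 and 3. Its sign differed between arrays, and its mean of -0.62 (95% interval -2.35 to 1.10, limma adjusted p = 0.546) was smaller than the spread (SD 1.18). Without array 1 the mean was 0.0087. No low value like those of BAX or MCL1 was seen for BAK1 on arrays 2 and 3, in the same stretch.

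Of the 7 features of BH3-only members at their own places, 5 were above 0 on every array that measured them and 0 were below on every array, against 28.8% and 28.3% of all features, and 3 of these 5 were measured on 2 arrays only. Of the 22 guardian features, 5 were above on every measured array and 10 below. The BH3-only values near 0.5 were those of the upper peak: 4 of the 7 lay within 0.5 of the most repeated value on every array that measured them, as did 16.4% of all features. Guardians did so in 5 of 22 features and effectors in 2 of 12. With each stretch at its better place, BH3-only values were divided, 11 above 0 and 10 below (BID 4 and 3, BAD 1 and 1, BCL2L11 6 and 6), and guardian values were 31 above and 34 below.

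BCL2L11, which encodes BIM, a BH3-only protein that binds all guardians, had 5 features, 4 of them kept. At place 32463 it had 0.41, 0.45 and 0.54 on arrays 1, 2 and 3, at place 5112 it had 0.82 on array 1 and 0.47 on array 3, and the feature of AB071195 had 1.06 on array 2 and 0.40 on array 3. The values of these 3 features stayed on one side of 0 and close together. At place 43412, in the last stretch, the values were -3.15, -0.32 and 0.55, so that array 1 stood apart at the own place. With each array at its better place in that stretch, they were -3.15, -2.37 and -3.52, low on all 3 arrays. The fitted mean at place 32463 was 0.47 ± 0.27 (SE, 3 arrays, limma adjusted p = 0.407). The mean over features was 0.22, and it turned to -0.06 without array 2, to -0.65 without array 3 and to -1.03 with each stretch at its better place.

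BID, the BH3-only protein that caspase 8 cleaves, had 3 features, 2 of them kept. The feature of NM_197966 at place 21043 had 1.33, 0.38 and 1.03, above 0 on every array, with a mean of 0.91 ± 0.34 (SE, limma adjusted p = 0.292). The feature of BC005884 had 3.70 on array 1 against -2.75 and -2.82 on arrays 2 and 3. The pair therefore disagreed on arrays 2 and 3 and not on array 1. Over both features the mean was 0.15, or -1.04 without array 1.

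BAD, a BH3-only protein that survival kinases hold in the cytosol by phosphorylation, had 1 feature, with 1.07 on array 1 and 0.46 on array 2 and no value on array 3. Its mean of 0.77 had a 95% interval of -0.81 to 2.35 (limma adjusted p = 0.426). A row earlier the values were -2.07, -3.24 and -5.37, all far below 0. The own place agreed better than a row earlier on arrays 2 and 3 in that stretch, and a row earlier agreed better on array 1.

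The comparison of roles differed between arrays. The median over guardian features was -0.47, -2.28 and -1.86 on arrays 1, 2 and 3, against -1.66, 0.18 and 0.40 over effector and BH3-only features. Taken apart, effectors had -2.19, 0.015 and -0.015 on arrays 1, 2 and 3, and BAX supplied 11 of their 12 features. BH3-only members had 0.95, 0.42 and 0.51, so on array 1 guardians lay between effectors and BH3-only members. Against the pooled pro-death members, guardians were 1.20 higher on array 1, as a difference of log2 medians. They were lower by 2.46 on array 2 and by 2.26 on array 3. The mean difference was -1.17 ± 2.05 (SD, n = 3 arrays), so it was smaller than the spread between arrays and changed sign. It was -2.46 without array 1, -0.64 without array 2 and -0.65 without array 3. No test was run on it, because the genes were chosen with results of these data known. With the mean over features in place of the median it was -0.75 ± 0.95, and with a median over genes -0.97 ± 1.38 (SD, n = 3 arrays).

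**Figure D3:**
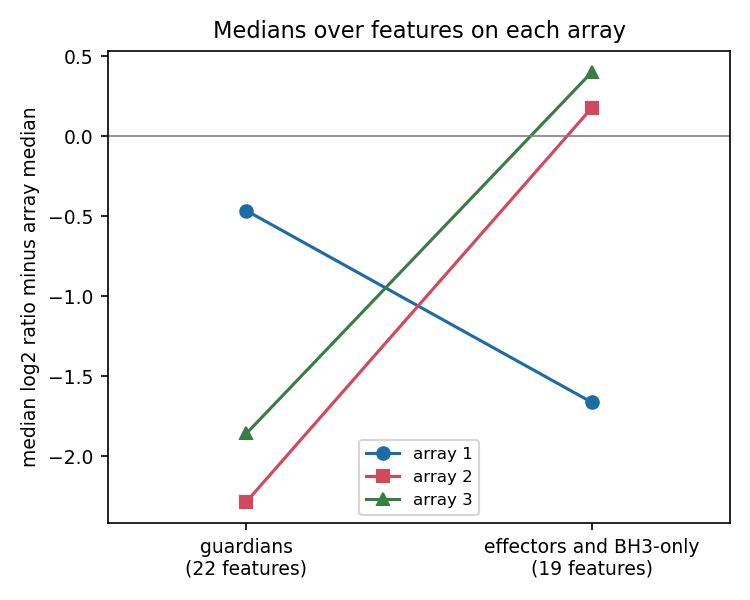
Median log2 ratio minus array median (vertical axis) over the 22 guardian features (left) and the 19 effector and BH3-only features (right), with 1 line per array. Guardians lie higher on array 1, at -0.47 against -1.66, and lower on arrays 2 and 3, at -2.28 against 0.18 and at -1.86 against 0.40.

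The agreement between arrays over members followed the same division. Across member features, which share transcripts and are not independent, the rank correlation was 0.706 between arrays 2 and 3 (35 features), 0.020 between arrays 1 and 2 (30 features) and -0.05 between arrays 1 and 3 (28 features). Over all features it was 0.532, 0.342 and 0.267. In the first stretch, over all features, array 1 correlated at 0.189 with the same place of array 2 and at 0.411 with the place 1 row later on array 2. With array 3 these values were 0.166 and 0.394. Array 1 therefore stood about 1 row apart from the others there. In stretches 2, 4 and 5 the check also placed array 1 apart from arrays 2 and 3, but the same place correlated better. In stretch 2, array 1 gave 0.326 with array 2 and 0.298 with array 3, against 0.226 and 0.207 a row later. In stretch 4 it gave 0.409 and 0.324, against 0.270 and 0.246 a row earlier. In stretch 5 these were 0.369 and 0.310, against 0.293 and 0.249. Agreement between arrays therefore did not bear out the check's places in these stretches.

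With each stretch at its better place, the difference between guardians and pro-death members was 1.19 on array 1, -0.69 on array 2 and 0.58 on array 3, with a mean of 0.36 ± 0.96 (SD, n = 3 arrays). In the first stretch alone, with 12 member features all at their own places, it was 1.58, 0.27 and -0.73, with a mean of 0.38 ± 1.16. On array 1 the check favoured a row earlier there, and the mean was positive only with that array included. Both settings were chosen after the data were seen, and in both the mean was positive and smaller than the spread. Counting features that the rule left out, the first stretch on arrays 2 and 3 held 9 BAX values between -6.80 and -1.65. It also held 5 MCL1 values between -3.98 and -2.11, a guardian and an effector low together. The 3 BCL2L11 values there lay between 0.40 and 1.06 and did not overlap with either. Of all values in that stretch, 50.1% on array 2 and 46.3% on array 3 were below the array median.

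**Figure D4:**
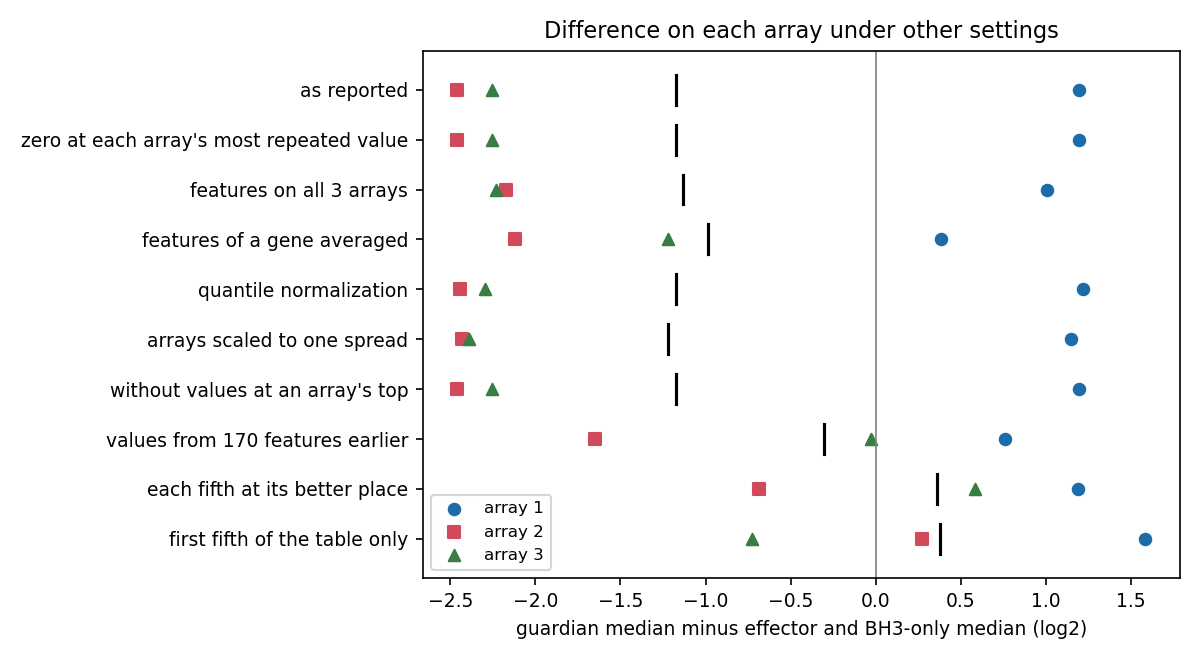
Median over guardian features minus median over effector and BH3-only features (horizontal axis, log2) on each array (circles, squares and triangles for arrays 1, 2 and 3), with the mean over arrays as a black bar, under the setting reported and 9 others (rows). The mean lies at -1.17 as reported and at 0.36 with each stretch at its better place, where arrays 1 and 3 lie above 0 and array 2 below.

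Other genes of the pathway were not called either, with 0 past the threshold above and 0 below in each of the 3 further lists. Other BCL2 family members had 18 of 23 features below 0 and a median of -1.46. The smallest p belonged to PMAIP1, which encodes NOXA, a BH3-only protein that binds MCL1, with -3.59, -3.16 and -2.65 on arrays 1, 2 and 3 (limma adjusted p = 0.059). Another PMAIP1 feature, at place 37441 in the last stretch, had 1.35, 1.30 and 0.83. At own places, features of this gene thus stood on both sides too. A row earlier, as the check favoured there on arrays 2 and 3, that feature had no value on either. BCL2L13, a mitochondrial family member, had -3.52, -2.57 and -3.48 (limma adjusted p = 0.059). Regulators and binding partners had 41 of 61 features below 0 and a median of -1.26. The 14-3-3 proteins YWHAZ and YWHAB, which hold phosphorylated BAD in the cytosol, had the smallest p, YWHAZ with -3.25, -2.98 and -3.74 and YWHAB with -3.75, -3.41 and -2.73 (limma adjusted p = 0.059 each). Another YWHAZ feature, at place 43202 in the last stretch, had 1.09, 1.53 and 4.84 at its own place. Read a row earlier, as the check favoured there on arrays 2 and 3, it had -3.08 and -3.89. At own places, 2 of the gene's 6 features had a mean above 0. Proteins released from mitochondria and the steps after them had 9 features above 0 and 9 below, with a median of 0.08. Among these, HTRA2, a released protease, had -3.48, -2.72 and -5.27 (limma adjusted p = 0.0879), and BIRC5, which encodes survivin, had -1.27, -1.58 and -2.12 at its feature with the smallest p (limma adjusted p = 0.111). BIRC5 features stood on both sides, 5 of 9 with a mean above 0, and the one with the next smallest p had 0.29, 1.99 and 2.35. At an unadjusted p under 0.05 these lists held 8, 23 and 3 features below 0 and 1, 1 and 0 above, beside the 18.3% and 1.4% of all features.

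The 9 annotated member features that the rule left out had too few values. One, of BCL2L1, had no value, and the other 8 had 1 value each, between -2.86 and 0.84. They included 3 BCL2 features, at -2.86 and 0.84 on array 1 and 0.07 on array 2, and 1 each of BCL2L1, MCL1, BAX, BID and BCL2L11.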

How the data were processed

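The authors' deposited table gives a log2 ratio of the channels for each feature on each array, with the base read from the values. How images were scanned and ratios normalized, centred and oriented is not given in the sources used here. Channel intensities were not analysed here. The array's platform annotation named features. Of 31332 with 1 symbol, 31291 matched the GRCh38.p14 RefSeq table by Entrez identifier and 0 changed symbol; 93 had several symbols and 13795 none.

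Each array was centred on its median over all features. Features on at least 2 arrays were fitted with limma 3.58.1 in R 4.3.3 (intercept, eBayes, two-sided against 0), p-values were adjusted by Benjamini-Hochberg over all 39399 features, and the threshold was 0.05. Features on 2 arrays were fitted without imputation. The fit was tested on simulated data. The number of arrays limits the precision. All members were named, and from each further list the 2 genes with the smallest p, since none passed; other features were chosen after their values were seen. Members and lists were chosen with earlier results of these data known. Other zero points, filters, normalizations, table places and left-out arrays were tried.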

Additional observations from a re-analysis of the deposited data

How the results depend on the processing

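Counts of called features, 0 above and 0 below as reported, depended on the zero point and the filter. With the zero at each array's most repeated value, 2 were called above and 3078 below, with 3 members below. Among features on all 3 arrays, 11 were called above and 2602 below, with 3 members below. Among those same features on all 3 arrays but without moderation, 6 were called below and 0 above, and 0 members. In each other setting, and without any 1 array, 0 were called; fewer arrays leave less power. The family's median, -0.77, was 0.61 with values as deposited, -1.40 with the zero at the most repeated value, -1.49 among features on all 3 arrays and -1.40 in the first stretch alone, and between -1.72 and -1.01 when 1 array was left out. The guardian difference of -1.17 lay between -2.46 and -0.64 without 1 array and was -0.31 with every value read 170 features earlier. Among the settings run it was positive in the 2 chosen after seeing the data. It was 0.36 with each stretch at its better place and 0.38 with the first stretch alone, all at own places. The cause was not tested. The mean over BAX features, -1.19, was negative in each setting run except with values as deposited (0.17). The median of all features was likewise negative in each except as deposited (1.00). Means of BCL2L1, BCL2L2, MCL1 and BCL2A1 were negative in each setting run for them, also as deposited (-0.48, -0.14, -1.16 and -0.50). Each array's ratio already pairs both cultures, so the test against 0 was a paired one. No further pairing was possible because all 3 arrays belong to 1 group.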
